A study of Mus musculus with 14 samples.

Results

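CD4+ T cells that made interferon-gamma in the presence of the DOT1L inhibitor SGC0946 were compared with cells of the same kind of culture that did not. The libraries were chosen by their labels: 3 from YFP-positive cells (YFPpos) and 3 from YFP-negative cells (YFPneg), all cultured with SGC0946, 6 of the 14 libraries in all. The study sequenced RNA of mouse CD4+ T cells that were sorted for reporter fluorescence after Th1 polarization with SGC0946 or with SGC0649, its inactive control compound, and RNA of naive cells. The mice were C57BL/6 animals with an IFN-g-YFP reporter, in which YFP fluorescence marks cells that use the Ifng gene. Cells came from spleen and peripheral lymph nodes, were enriched for CD4 and were not sorted as naive cells, so memory and regulatory T cells could be present at the start. All 6 libraries share a culture of 4 days on plate-bound antibodies to CD3 and CD28 (1 µg/ml of each) with IL-2 and IL-12 (10 ng/ml of each), 10 µg/ml of antibody to IL-4 and 1 µM of SGC0946. Both sorts therefore carry the inhibitor, and the comparison is of producers with non-producers, not of inhibited with uninhibited cells. The same sort after culture with 1 µM of SGC0649 (2 YFPneg and 3 YFPpos libraries) served as the reference for what differed with the inhibitor, while 3 naive libraries entered the model only. A Th1 culture without either compound was not analysed here. Nothing in the sources used here gives the age or number of the animals. The design calls the libraries biological replicates, and nothing else says that they came from separate animals or cultures, so p-values measure the spread between these samples, which may be technical.

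DOT1L is the enzyme that methylates histone H3 at H3K79, a mark found along the bodies of transcribed genes, and it works in a complex with proteins of the AF9 and AF10 families. T-bet, the product of Tbx21, directs the Th1 fate, in which CD4+ T cells make interferon-gamma for defence against intracellular microbes. Within a Th1 culture some cells make the cytokine and others do not at a given time, and a reporter lets both be sorted from it. Interferon-gamma and type I interferons act through JAK kinases and STAT factors on genes of antiviral defence and antigen presentation.

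Levels are given as counts per 1000000 reads assigned to genes (CPM), scaled between libraries, and always in the order of replicates 1, 2 and 3. A log2 fold change is YFPpos minus YFPneg, so a positive value means a higher level in producers, and ± is its standard error. A gene was called when its p-value in edgeR's quasi-likelihood test, after Benjamini-Hochberg adjustment over the 12343 genes tested, was under 0.05. Rose and fell are used only for called genes and mean higher or lower in YFPpos than in YFPneg cells.

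Total counts were 14.5 M to 18.7 M (M, 1000000 counts) in the YFPneg and 21.8 M to 31.6 M in the YFPpos libraries. The sorts also differed in reads mapped to several places (22% to 22.3% against 24% to 25.7%) and in reads outside annotated features (8.74% to 9.08% against 7.36% to 7.71%). Unmapped reads made up 3.14% to 4.62% of the YFPneg libraries and 7.58%, 3.61% and 8.12% of YFPpos replicates 1, 2 and 3, so replicate 2 stood apart from the other YFPpos libraries. YFPneg replicate 3 was the smallest library. The 12 genes of T cell identity summed to 5544 to 5700 CPM in YFPneg and 5067 to 5174 CPM in YFPpos cells, and Cd4 was at 551, 571 and 577 CPM in the YFPneg libraries and 576, 546 and 541 CPM in the YFPpos libraries (log2 fold change -0.03 ± 0.06, adjusted p = 0.66). Cd8a was at 1.23, 0.1248 and 2.44 CPM in the YFPneg libraries and 0.445, 0.675 and 0.583 CPM in the YFPpos libraries, and both CD8 genes together summed to 12.2 to 19.7 CPM and 5.82 to 6.63 CPM. Cd8a was not called, while Cd8b1 was called lower in producers and kept that call in all 13 alternatives (log2 fold change -1.36 to -1.04). The 10 markers of B cells summed to 0.0697 to 2.24 CPM in YFPneg and 2.78 to 3.2 CPM in YFPpos cells with Pax5 at 0. Of the 3 tested B cell markers Ebf1 was called higher (log2 fold change 2.22), and Cd79a and Cd79b were not called. The 18 markers of myeloid cells summed to 2.51 to 7.59 CPM and 7.31 to 8.67 CPM with Csf1r, Clec9a, Siglech, S100a8 and S100a9 at 0. Markers of NK and innate lymphoid cells (11 genes) summed to 9.36 to 13.4 CPM in YFPneg and 16.4 to 22.5 CPM in YFPpos cells. In the same order, those of gamma-delta and NKT cells (5 genes) summed to 0.488 to 3.69 CPM and 5.32 to 7.69 CPM. Of their 2 tested members only Il23r, also on the Th17 list, was called, and it was higher. Zbtb16 and Sox13 were not tested and had 20 and 11 counts in YFPneg and 9 and 24 in YFPpos libraries. Markers of red cells and platelets (9 genes) summed to 2.79 to 4.18 CPM and 1.99 to 2.71 CPM. Heat shock and dissociation genes (13) summed to 6269 to 6375 CPM in YFPneg and 6558 to 6771 CPM in YFPpos cells. The part of these markers in the results was not tested. In bulk RNA, fewer cells of a type and less RNA per cell cannot be told apart.

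Producers and non-producers differed at a large share of the genes measured. Of 12343 genes tested, 3321 (26.9%) were called higher and 3431 (27.8%) lower in YFPpos cells, which makes 54.7% called in all. Among them 948 (7.68%) were higher and 744 (6.03%) lower by at least 2-fold. The libraries of the sorts did not overlap for 7352 genes (59.6%). Counts of list members below are to be read against these shares, and list medians against a median of 0.01 over all genes. They cover only members that passed the filter on low counts, which was 11 of 16 NK lectin receptors, 22 of 27 cytokines, 18 of 22 chemoattractant receptors, 6 of 11 markers of NK and innate lymphoid cells, 8 of 18 myeloid and 3 of 10 B cell markers. A gene can pass that filter through the sort in which it is high. Without YFPneg replicate 3 and YFPpos replicate 2 together, 3070 genes were called higher and 3178 lower.

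**Figure D1:**
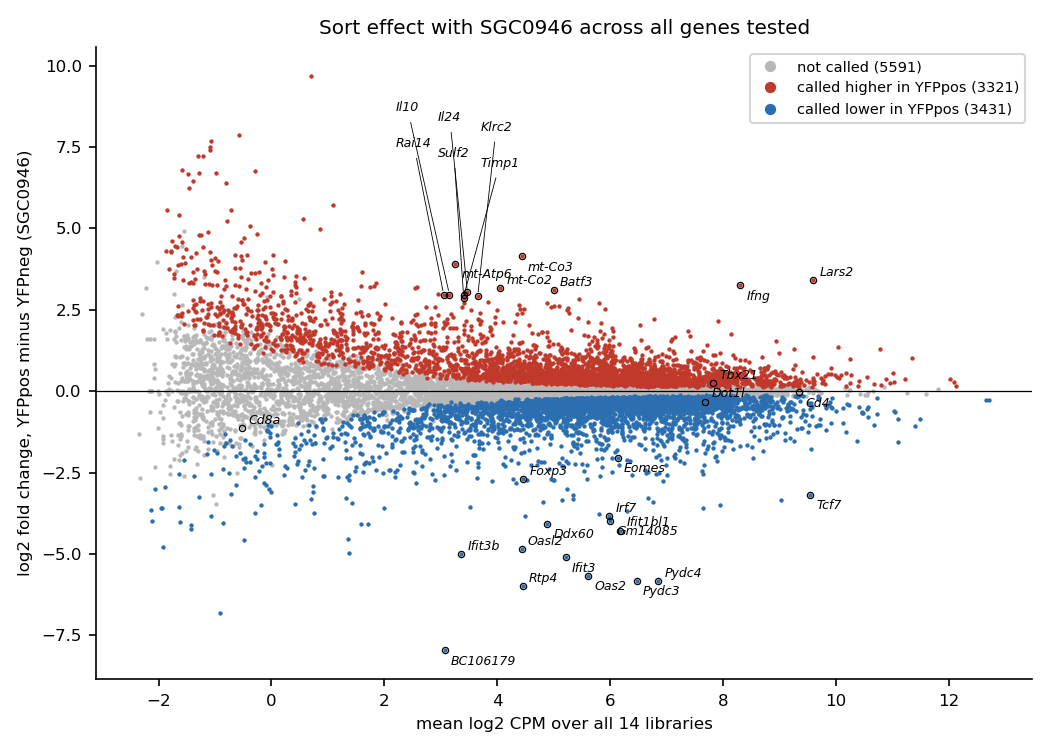
Mean level of each of the 12343 genes tested (horizontal axis, log2 CPM over all 14 libraries) against the log2 fold change between YFPpos and YFPneg cells with SGC0946 (vertical axis). Red points are the 3321 genes called higher and blue points the 3431 called lower, and the named points include Ifng above and the antiviral genes Irf7, Oas2 and Rtp4 far below the line at 0.

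The sort itself was visible in the gene it reports on. Ifng (chr10:118441046-118445892, ENSMUSG00000055170) was at 114, 55.4 and 31.2 CPM in the YFPneg libraries and 701, 533 and 701 CPM in the YFPpos libraries. All YFPpos libraries lay above all YFPneg libraries (log2 fold change 3.26 ± 0.32, adjusted p = 2.2e-07), which is what the reporter selected for and is given as a check of the labels only. Among YFPneg libraries replicate 1 had the highest Ifng level. Tbx21 was at 278, 279 and 265 CPM in the YFPneg libraries and 322, 332 and 314 CPM in the YFPpos libraries, a small difference without overlap (log2 fold change 0.24 ± 0.06, adjusted p = 0.0027).

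Regulators of interferon-gamma and the Th1 fate split in direction, with 14 of 24 measured genes higher, 9 lower and a median log2 fold change of 0.33. The 14 include Ifng itself, for which the cells were sorted. Eomes, a T-box factor related to T-bet, fell: it was at 66.2, 80.1 and 118 CPM in the YFPneg libraries and 18.8, 19.6 and 25.4 CPM in the YFPpos libraries (log2 fold change -2.04 ± 0.24, adjusted p = 2.1e-06). Every YFPpos library lay below the lowest YFPneg library. Txk, a Tec-family kinase of T cells, fell with it (log2 fold change -1.82 ± 0.10, adjusted p = 2e-10), as did Runx1, a Runt-family transcription factor (log2 fold change -1.75 ± 0.11, adjusted p = 7.9e-10). Gadd45g, which activates the p38 kinase pathway, rose from 179, 183 and 160.1 CPM to 280.1, 319.8 and 322 CPM (log2 fold change 0.82 ± 0.07, adjusted p = 4.4e-08). Stat4, the factor activated by IL-12, fell slightly, from 66.0, 55.0 and 71.1 CPM to 47.7, 45.2 and 51.0 CPM (log2 fold change -0.42 ± 0.09, adjusted p = 0.00092), and the IL-12 receptor gene Il12rb1 fell by a similar amount (-0.33). The chemokine receptor gene Cxcr3, another Th1 marker, was also lower in producers though YFPneg and YFPpos libraries overlapped (10.3, 8.67 and 4.25 CPM and 4.31, 3.02 and 3.71 CPM, log2 fold change -1.08 ± 0.28, adjusted p = 0.0039).

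**Figure D2:**
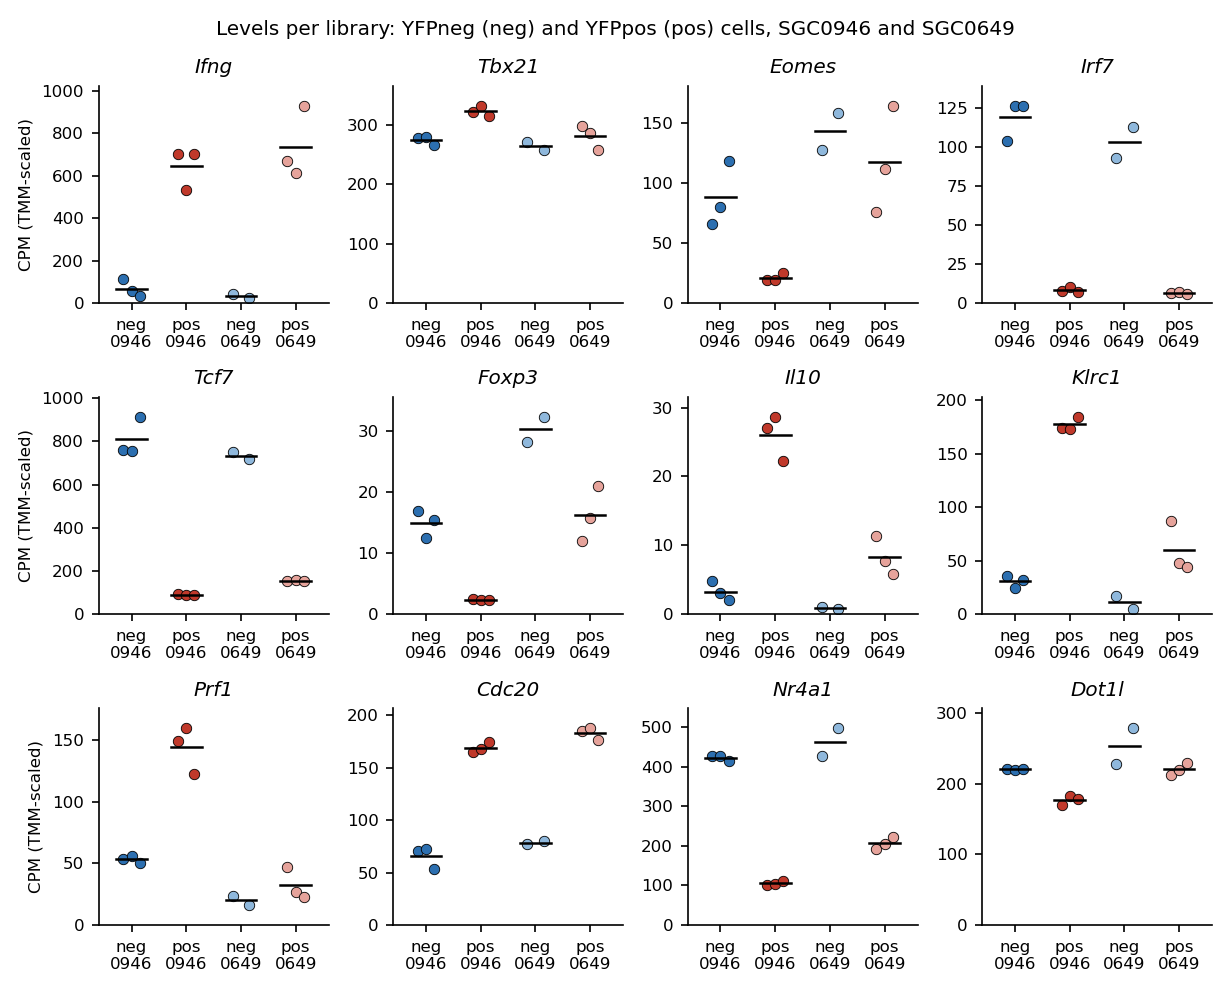
Level of 12 genes in each library (points, CPM on a linear axis from 0; bars, group means) in YFPneg and YFPpos cells with SGC0946 (dark) and with SGC0649 (pale). With SGC0946 the YFPpos and YFPneg libraries do not overlap in any of the 12 genes shown.

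Most interferon-response genes examined were lower in the cells that made interferon-gamma, and the antiviral genes had the lowest median of the lists examined. Of 50 measured antiviral genes of the type I interferon response, 48 fell and none rose, with a median log2 fold change of -1.79. Bst2 and Ifi204 were the members not called (-0.05 and 0.73). The list did not hold the interferon-induced Ifitm3 or its relatives Ifitm1 and Ifitm2, which rose and are given below. Irf7, the master regulator of type I interferon responses, was at 104, 126 and 126 CPM in the YFPneg libraries and 7.47, 10.2 and 7.31 CPM in the YFPpos libraries (log2 fold change -3.84 ± 0.13, adjusted p = 1.1e-12). Oas2, which makes the messenger that activates RNase L, went from 79.1, 117 and 103 CPM to 1.6, 2.42 and 1.81 CPM (log2 fold change -5.67 ± 0.20, adjusted p = 1.2e-12). In both genes every producer library lay far below every non-producer library.

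Other strongly lower genes of this kind were Rtp4 (38.6, 44.2 and 51.9 CPM against 0.978, 0.636 and 0.552 CPM, log2 fold change -5.98 ± 0.26, adjusted p = 1.1e-11) and Oasl2 (43.4, 58.9 and 59.6 CPM against 1.69, 1.83 and 2.03 CPM, log2 fold change -4.85 ± 0.23, adjusted p = 3.9e-11). Slfn8, named only because its promoter is printed here, fell as well (-2.51). Slfn5, a Schlafen family gene, was at 74.5, 75.9 and 66.3 CPM in YFPneg against 5.38, 5.80 and 4.60 CPM in YFPpos cells (log2 fold change -3.79 ± 0.10, adjusted p = 7.3e-14). Samd9l, an interferon-induced restriction factor, was at 164, 195 and 222 CPM in YFPneg against 14.1, 19.3 and 14.5 CPM in YFPpos cells (log2 fold change -3.60 ± 0.12, adjusted p = 6.1e-13). Ifit3 and Ifit3b, which encode RNA-binding antiviral proteins, had log2 fold changes of -5.10 and -4.99, Ifit1bl1 had -4.28, and the pyrin-domain genes Pydc3 and Pydc4 had -5.82 and -5.84. Ifit3 and Ifit3b are near-identical copies, as are Pydc3 and Pydc4, and reads that map to several places were left unassigned, so the split between such copies is uncertain. The 12 genes with the largest decrease and a mean log2 CPM of at least 3 were mostly of this class. They also held BC106179, which had 515 counts in YFPneg and 3 in YFPpos libraries, a ratio of YFPneg to YFPpos of 281 (95% counting interval 95.5 to 1365), Gm14085 (log2 fold change -3.98 ± 0.19, adjusted p = 5.3e-11) and Ddx60, an RNA helicase of the antiviral response (log2 fold change -4.08 ± 0.26, adjusted p = 1.2e-09).

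Promoters were searched on either strand for GAAA followed by any 2 letters and another GAAA. These letters are the core of the interferon-stimulated response element (ISRE), bound by interferon-activated factors of the IRF and STAT families. The search covered 250 bases before to 50 bases after each annotated start (RefSeq, GRCm38.p6). The letters were present for 19 of the 38 antiviral genes with a promoter in the table (50%) and for 9 of 10 interferon-inducible GTPases (90%). They were present for 362 of 9411 tested genes with a promoter (3.85%), and for 5.61% of genes called lower and 3.45% of genes called higher. Both lists are of known interferon-response genes, so their high shares follow in part from how they were chosen, whatever moved here. Members of these lists are also among the genes called lower. Bst2, which was not called, held matches as well. A gene can have several starts, and a match is a description of letters, not evidence of binding. The 60 bases shown lie upstream of a start of 5 antiviral genes and 2 GTPases, those with the smallest p that hold a match wholly before the start, and capitals mark the match. They are shown so that the shared letters can be seen. The coordinates in the same order are chr19:34602038-34602097 (minus strand), chr11:82951922-82951981 (plus strand), chr11:83020824-83020883 (minus strand), chr19:34583382-34583441 (plus strand), chr19:34607778-34607837 (plus strand), chr11:48871421-48871480 (minus strand) and chr11:49064248-49064307 (minus strand), all on GRCm38.p6.
Ifit1bl1: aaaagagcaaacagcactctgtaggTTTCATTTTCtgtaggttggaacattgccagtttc
Slfn5: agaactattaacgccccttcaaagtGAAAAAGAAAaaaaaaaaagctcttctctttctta
Slfn8: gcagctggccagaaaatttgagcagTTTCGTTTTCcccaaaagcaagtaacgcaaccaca
Ifit3: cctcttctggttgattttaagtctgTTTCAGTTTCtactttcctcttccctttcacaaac
Ifit3b: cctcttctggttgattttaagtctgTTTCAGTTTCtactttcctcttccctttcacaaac
Irgm1: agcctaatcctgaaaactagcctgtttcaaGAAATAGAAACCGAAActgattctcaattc
Tgtp2: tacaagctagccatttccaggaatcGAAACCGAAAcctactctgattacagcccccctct
Sequences run from 5′ to 3′ on the gene's strand, so capitals that start with TTTC are matches on the opposite strand. Irgm1 holds overlapping matches that share a GAAA block. The stretches of Ifit3 and Ifit3b are the same 60 letters.

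The interferon-inducible GTPases, which attack the vacuoles of intracellular microbes, fell in 18 of 19 measured genes, with a median log2 fold change of -1.55. Irgm1 was at 451, 452 and 556 CPM in YFPneg against 145, 154 and 143 CPM in YFPpos cells (log2 fold change -1.72 ± 0.07, adjusted p = 7.8e-12). Gbp9 was at 324, 377 and 423 CPM in YFPneg against 63.6, 69.2 and 59.9 CPM in YFPpos cells (log2 fold change -2.55 ± 0.08, adjusted p = 7e-13), and Iigp1 at 322, 299.7 and 370.4 CPM in YFPneg against 72.8, 76.2 and 67.5 CPM in YFPpos cells (log2 fold change -2.20 ± 0.08, adjusted p = 3.4e-12). Each of these genes was lower in all 3 producers than in any non-producer. Ifi47 (-1.84), Gbp10 (-3.41) and Tgtp2 (-2.47) fell as well, although members of the Gbp and Tgtp clusters are close copies of each other.

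MHC class I and immunoproteasome genes fell without exception, 21 of 21, with a median of -0.76. H2-K1, a classical class I heavy chain, was at 2929, 3313 and 3239 CPM in YFPneg against 1474, 1602 and 1478 CPM in YFPpos cells (log2 fold change -1.06 ± 0.06, adjusted p = 5.6e-10). Tapbp, the loading chaperone tapasin, fell by a like amount (log2 fold change -1.04 ± 0.07, adjusted p = 1e-09), and Nlrc5, the transactivator of class I genes, went from 556, 597 and 607 CPM to 315, 338 and 303 CPM (log2 fold change -0.88 ± 0.06, adjusted p = 2.4e-09). The non-classical H2-T24 (-2.49) and H2-T22 (-1.15) and the class Ib gene H2-Q7 (-1.40) fell too, with reads between class I copies not fully separable. ISRE letters were present for 5 of 17 of these genes with a promoter (29.4%).

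Receptors and signal carriers of the interferon pathways were lower in producers as well: 20 of 27 genes fell and 3 rose, with a median of -0.55. Ifngr2, the signalling chain of the interferon-gamma receptor, was at 29.2, 33.0 and 37.2 CPM in the YFPneg libraries and 4.18, 5.76 and 4.94 CPM in the YFPpos libraries (log2 fold change -2.73 ± 0.13, adjusted p = 4.9e-11). Stat2, a STAT factor of the type I interferon signal, was at 309.7, 331 and 357 CPM in YFPneg against 125, 142 and 124 CPM in YFPpos cells (log2 fold change -1.35 ± 0.07, adjusted p = 6.2e-11). Ifnar1, a chain of the type I interferon receptor, fell from 226, 227 and 241 CPM to 106, 111 and 103 CPM (log2 fold change -1.12 ± 0.06, adjusted p = 1.8e-10). Producers therefore had lower transcript levels of a receptor chain and of target genes of the cytokine they were sorted for. Irf1 (-1.30) and Socs3 (-1.38) were also lower. The exceptions were Socs2 (log2 fold change 1.08 ± 0.14, adjusted p = 5.1e-06), Cish (log2 fold change 0.40 ± 0.09, adjusted p = 0.00075), both feedback inhibitors of STAT5 signalling, and Irf5 (log2 fold change 0.67 ± 0.24, adjusted p = 0.026). Irf5 was not called in the 6 SGC0946 libraries alone, without YFPpos replicate 1 or 3, or without YFPneg replicate 3 and YFPpos replicate 2 together.

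**Figure D3:**
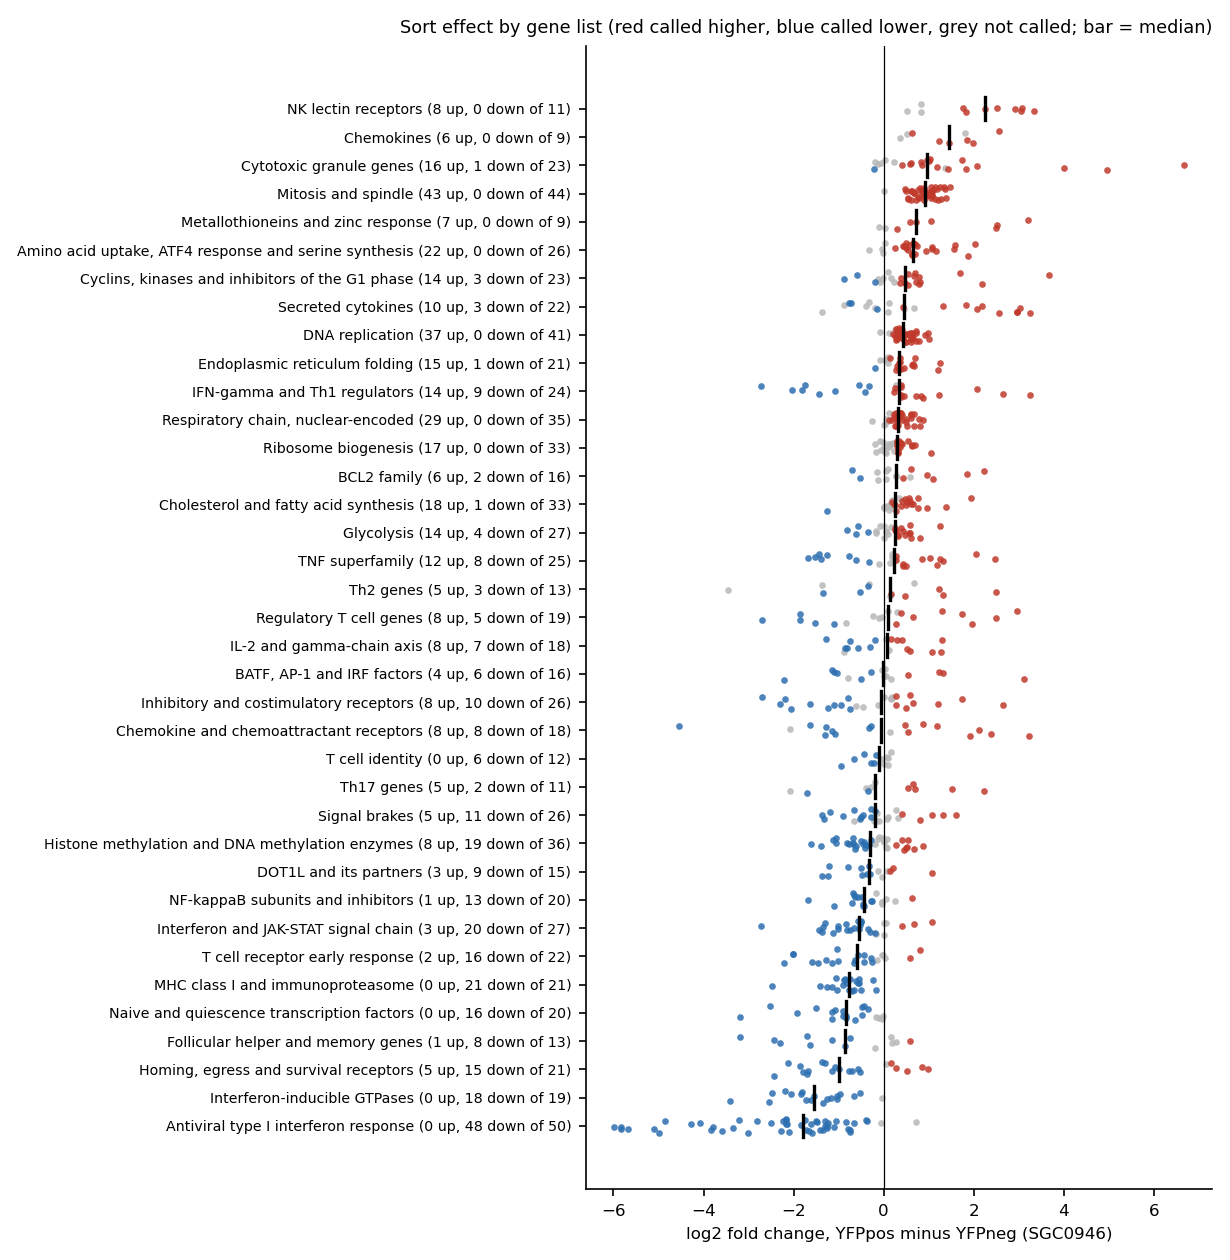
Log2 fold change between YFPpos and YFPneg cells with SGC0946 (horizontal axis) of every tested member of 37 gene lists, ordered by their median (black bar). Antiviral genes lie furthest to the left with 48 of 50 called lower, and NK lectin receptors furthest to the right with 8 of 11 called higher.

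Secreted factors moved the other way. Of 22 measured cytokines 10 rose and 3 fell (median 0.45), and of 9 chemokines 6 rose and none fell (median 1.46). The 10 cytokines include Ifng, which the sort itself selected for. Il10, the anti-inflammatory cytokine that Th1 cells can make late in a response, was at 4.75, 3.00 and 2.02 CPM in the YFPneg libraries and 27.1, 28.7 and 22.2 CPM in the YFPpos libraries (log2 fold change 2.97 ± 0.29, adjusted p = 5.4e-07). Il24, an IL-10 family cytokine, was at 4.59, 2.31 and 0.418 CPM in YFPneg against 23, 15.6 and 23.9 CPM in YFPpos cells (log2 fold change 3.03 ± 0.43, adjusted p = 2.6e-05). Neither gene's groups overlapped, and both were lowest in YFPneg replicate 3. Spp1 (osteopontin) and Penk (proenkephalin) rose with log2 fold changes of 2.56 and 2.18. Ltb (log2 fold change -0.77 ± 0.08, adjusted p = 2.6e-07), Il16 (log2 fold change -0.73 ± 0.08, adjusted p = 1.1e-06) and Tgfb1 (log2 fold change -0.15 ± 0.06, adjusted p = 0.036) fell; Tgfb1 lost its call in 7 of 13 alternatives.

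Among chemokines, several inflammatory CC ligands were higher in producers. Ccl5 was at 19.8, 20.0 and 12 CPM in YFPneg against 110.2, 109 and 90.1 CPM in YFPpos cells (log2 fold change 2.57 ± 0.26, adjusted p = 4.2e-07), Ccl3 at 134, 83.1 and 81.4 CPM in YFPneg against 411, 305 and 373 CPM in YFPpos cells (log2 fold change 1.86 ± 0.18, adjusted p = 2.6e-07) and Ccl4 at 201, 163 and 154 CPM in YFPneg against 433, 385 and 406 CPM in YFPpos cells (log2 fold change 1.24 ± 0.12, adjusted p = 4.9e-07). For all 3 ligands the lowest producer library exceeded the highest non-producer library. Ccl9 (1.99) and Xcl1 (1.46) rose as well. Cxcl10, itself an interferon target, was at 8.01, 5.30 and 9.48 CPM in YFPneg against 10.7, 10.4 and 13.9 CPM in YFPpos cells (log2 fold change 0.62 ± 0.24, adjusted p = 0.036), and its call was lost without YFPneg replicate 1 or 2 or YFPpos replicate 1 or 3.

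Chemoattractant receptors split evenly, with 8 of 18 higher and 8 lower. Ccr7, which holds T cells in lymph nodes, fell from 824, 907 and 879 CPM to 393, 353 and 425 CPM (log2 fold change -1.16 ± 0.07, adjusted p = 2.9e-10), and S1pr1, the egress receptor, from 225, 223 and 239.7 CPM to 98.6, 95.4 and 85.5 CPM (log2 fold change -1.30 ± 0.10, adjusted p = 1.9e-08). Ccr2, a receptor of inflamed tissue, rose from 38.6, 33.2 and 29.1 CPM to 135, 165 and 137 CPM (log2 fold change 2.11 ± 0.17, adjusted p = 3.1e-08), and Cxcr6 from 7.48, 4.68 and 4.88 CPM to 31.3, 31.5 and 27.2 CPM (log2 fold change 2.39 ± 0.22, adjusted p = 1.2e-07). Ltb4r1, the leukotriene B4 receptor, was at 1.23, 1.44 and 0 CPM in YFPneg against 6.45, 11.3 and 8.04 CPM in YFPpos cells (log2 fold change 3.23 ± 0.57, adjusted p = 0.00015). Cxcr3, given with the Th1 regulators, and Ccrl2 (-1.28) fell. Ccr9, the gut-homing receptor, was lower: the YFPneg libraries were at 0.481, 0.562 and 1.19 CPM and the YFPpos libraries, with 2 counts in all, at 0.0889, 0 and 0 CPM, a ratio of YFPneg to YFPpos of 28.6 (95% counting interval 7.35 to 246).

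Genes of the cytotoxic granule were higher in producers: 16 of 23 rose and 1 fell, with a median of 0.97. Gzmb (granzyme B) was at 2305, 2632 and 2365 CPM in the YFPneg libraries and 4666, 5124 and 4972 CPM in the YFPpos libraries (log2 fold change 1.02 ± 0.11, adjusted p = 6.9e-07). Prf1 (perforin) was at 53.6, 56.3 and 50.6 CPM in YFPneg against 149, 159.9 and 123 CPM in YFPpos cells (log2 fold change 1.43 ± 0.19, adjusted p = 6.4e-06), and Nkg7, a granule membrane protein, at 192, 178 and 111 CPM in YFPneg against 562, 533 and 519.8 CPM in YFPpos cells (log2 fold change 1.75 ± 0.14, adjusted p = 1.4e-08). The groups did not overlap for any of these genes. Tnfsf10, the death ligand TRAIL, rose (log2 fold change 1.18 ± 0.13, adjusted p = 5.9e-07), as did the lysosomal protease Ctsd (log2 fold change 0.97 ± 0.12, adjusted p = 4e-06). Gzmc rose too (log2 fold change 2.07 ± 0.31, adjusted p = 2.8e-05), though granzymes C to G are close copies. Lamp1 was the exception (log2 fold change -0.21 ± 0.06, adjusted p = 0.0064).

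Lectin-like receptors of the NK gene complex had the highest median of all lists, 2.24, with 8 of 11 called higher and none lower. Klrc1 (NKG2A) was at 35.7, 24.5 and 31.9 CPM in the YFPneg libraries and 174, 173 and 185 CPM in the YFPpos libraries (log2 fold change 2.53 ± 0.28, adjusted p = 1.1e-06). Klrk1 (NKG2D) was at 31.3, 27.7 and 12.3 CPM in YFPneg against 109.7, 119 and 112 CPM in YFPpos cells (log2 fold change 2.24 ± 0.29, adjusted p = 6.9e-06), and Klrd1 (CD94), the partner of NKG2A, at 51.2, 36.1 and 31.2 CPM in YFPneg against 132, 141 and 133 CPM in YFPpos cells (log2 fold change 1.77 ± 0.31, adjusted p = 0.00012). Klrc2 (2.92), Klri2 (3.06) and Klra3 (3.08) rose as well, with Klra members hard to separate from their copies. These receptors are shared by NK cells and activated T cells, and the 11 markers of NK and innate lymphoid cells summed to 9.36 to 13.4 CPM in YFPneg and 16.4 to 22.5 CPM in YFPpos cells, whose part was not tested. Of 6 tested markers of NK and innate lymphoid cells, 2 rose, among them Itga2 (log2 fold change 1.28 ± 0.49, adjusted p = 0.037), while Tyrobp (log2 fold change 0.30 ± 1.21, adjusted p = 0.85), Fcer1g (log2 fold change 1.33 ± 0.83, adjusted p = 0.19), Cd160 and Klrb1c were not called, the last with 2 counts in YFPneg and 6 in YFPpos libraries. Itga2 was not called in the 6 SGC0946 libraries alone, or when YFPneg replicate 3 or any 1 of the YFPpos libraries was left out.

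Transcription factors of naive and resting T cells were lower in producers, 16 of 20, with none higher and a median of -0.83. Tcf7, which encodes TCF-1 of memory and stem-like T cells, was at 761, 756 and 914 CPM in the YFPneg libraries and 93.9, 88.8 and 85.8 CPM in the YFPpos libraries (log2 fold change -3.18 ± 0.07, adjusted p = 9.3e-15). Bach2, a repressor of effector genes, was at 364, 350.3 and 418 CPM in YFPneg against 137, 125 and 136 CPM in YFPpos cells (log2 fold change -1.51 ± 0.07, adjusted p = 2.7e-11), and Lef1, the relative of TCF-1, at 217, 217 and 248 CPM in YFPneg against 105, 106 and 98.2 CPM in YFPpos cells (log2 fold change -1.14 ± 0.06, adjusted p = 2e-10). Producers held the lower level in every library. Klf3 (-2.53), Btg1 (-1.14) and Foxp1 (-1.07), genes of quiescence, followed.

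Homing, egress and survival receptors fell in 15 of 21 and rose in 5 (median -1.0). Slamf6, a marker of stem-like T cells, was at 126, 126 and 149.8 CPM in YFPneg against 25.7, 26.8 and 22.3 CPM in YFPpos cells (log2 fold change -2.43 ± 0.08, adjusted p = 7.3e-13). Cd27 was at 226, 262 and 258 CPM in YFPneg against 74.4, 79.7 and 78.1 CPM in YFPpos cells (log2 fold change -1.68 ± 0.07, adjusted p = 5.7e-12), and Il6st, the shared gp130 chain, at 232, 243 and 249.99 CPM in YFPneg against 96.9, 95.5 and 90.1 CPM in YFPpos cells (log2 fold change -1.36 ± 0.05, adjusted p = 4.5e-12). Nsg2 (-2.12), Igfbp4 (-1.78) and Itgae (-1.85) were lower, although Itgae overlapped between the sorts and lost its call in 7 of 12 alternatives. Cd44, the marker of antigen-experienced cells, rose (log2 fold change 0.84 ± 0.13, adjusted p = 2.6e-05), as did Ly6c2 (log2 fold change 0.99 ± 0.23, adjusted p = 0.0015), Itgal (0.26), Il4ra (0.17) and the IL-7 receptor chain Il7r (log2 fold change 0.53 ± 0.18, adjusted p = 0.020), whose call was lost without YFPneg replicate 2 or YFPpos replicate 2. Il4ra lost its call in 4 of 13 alternatives. Follicular helper and memory genes showed 8 of 13 lower (median -0.86), among them Il6ra (log2 fold change -1.71 ± 0.10, adjusted p = 3.1e-10), with Icos the only one higher (log2 fold change 0.59 ± 0.06, adjusted p = 3.2e-07).

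Genes of the early response to the T cell receptor, which a fresh antigen signal switches on within minutes to hours, were lower in producers at the time of sorting. Of 22 genes 16 fell and 2 rose, with a median of -0.60. Nr4a1 (Nur77), a reporter of receptor signal strength, was at 427, 426 and 413 CPM in the YFPneg libraries and 101, 103 and 111 CPM in the YFPpos libraries (log2 fold change -2.01 ± 0.07, adjusted p = 7.4e-13). Egr1 was at 268, 247 and 279 CPM in YFPneg against 98.1, 96.1 and 93.8 CPM in YFPpos cells (log2 fold change -1.46 ± 0.07, adjusted p = 3.1e-11), and the activation antigen Cd69 at 164, 151 and 219 CPM in YFPneg against 44.9, 39.8 and 46.9 CPM in YFPpos cells (log2 fold change -2.02 ± 0.15, adjusted p = 1e-08). The groups did not overlap. Egr2 (-1.28), Nfatc1 (-0.66) and Jun (-1.14) fell too, and Dusp5 (log2 fold change 0.80 ± 0.11, adjusted p = 1.5e-05) and Ier3 (log2 fold change 0.58 ± 0.15, adjusted p = 0.0032) rose. Jun and Fos are also dissociation genes, and both fell (-1.14 and -1.03).

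Of 20 NF-kappaB subunits, inhibitors and related genes 13 fell and 1 rose (median -0.45). The kinase gene Ikbke was at 341, 389 and 403 CPM in YFPneg against 117, 127 and 112 CPM in YFPpos cells (log2 fold change -1.67 ± 0.07, adjusted p = 1.1e-11). Tnip3 was the exception (log2 fold change 0.63 ± 0.13, adjusted p = 0.00060). Among 26 brakes of receptor and cytokine signals 11 fell and 5 rose: the diacylglycerol kinase Dgka fell (log2 fold change -1.2 ± 0.07, adjusted p = 4.1e-10), as did Dusp10 (-1.33) and Spry1 (-0.90), while Dusp4 (log2 fold change 1.33 ± 0.11, adjusted p = 2.5e-08) and Spry2 (log2 fold change 1.62 ± 0.37, adjusted p = 0.0015) rose. BATF, AP-1 and IRF factors split 4 to 6. Batf3 was at 16.5, 10.2 and 4.67 CPM in the YFPneg libraries and 97.0, 87.8 and 91.9 CPM in the YFPpos libraries (log2 fold change 3.11 ± 0.26, adjusted p = 1.1e-07), among the largest increases. Batf, its relative, rose less (log2 fold change 0.54 ± 0.12, adjusted p = 0.00089), and Maf (log2 fold change 1.31 ± 0.14, adjusted p = 9e-07) and Nfil3 (log2 fold change 1.24 ± 0.15, adjusted p = 3.8e-06), factors known for driving Il10, rose with them, while the repressor Bach1 fell (log2 fold change -1.09 ± 0.11, adjusted p = 2.9e-07).

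Inhibitory and costimulatory receptors did not move as a class, with 8 of 26 higher and 10 lower. Cd274 (PD-L1), an interferon target, was at 205, 229.9 and 304 CPM in the YFPneg libraries and 60.2, 57.4 and 59.8 CPM in the YFPpos libraries (log2 fold change -2.06 ± 0.11, adjusted p = 2.7e-10). Tox, the exhaustion-associated factor, was at 25.1, 24.4 and 32.3 CPM in YFPneg against 5.65, 6.95 and 5.43 CPM in YFPpos cells (log2 fold change -2.18 ± 0.13, adjusted p = 5.2e-10). Havcr2 (TIM-3), a receptor of terminal Th1 cells, was at 11, 10.7 and 5.51 CPM in YFPneg against 62.0, 60.9 and 48.7 CPM in YFPpos cells (log2 fold change 2.64 ± 0.27, adjusted p = 4.6e-07). Tigit (log2 fold change 1.2 ± 0.16, adjusted p = 1e-05), Entpd1 (CD39, log2 fold change 1.74 ± 0.24, adjusted p = 1e-05) and Ctla4 (log2 fold change 0.66 ± 0.09, adjusted p = 8.6e-06) rose, whereas Cd96 (-1.64), Vsir (-1.24), Cd5 (-0.94) and Cd6 (-0.79) fell. Of 25 TNF superfamily genes 12 rose and 8 fell, with Fas at 111, 108 and 109 CPM in YFPneg against 47.4, 45.1 and 45.3 CPM in YFPpos cells (log2 fold change -1.25 ± 0.07, adjusted p = 4.5e-10), Tnfrsf14 (-1.52) and Tnfrsf25 (-1.40) lower.

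Receptor genes of IL-2 diverged from the shared chain. Il2ra (CD25) was at 1497, 1254 and 1107 CPM in the YFPneg libraries and 3304, 3084 and 3064 CPM in the YFPpos libraries (log2 fold change 1.29 ± 0.13, adjusted p = 2.5e-07), and Il2rg, the common gamma chain, at 486, 494 and 515 CPM in YFPneg against 281, 281 and 289.9 CPM in YFPpos cells (log2 fold change -0.81 ± 0.05, adjusted p = 1.2e-09). Il15ra (-1.27), Jak1 (-0.75) and Stat5b (-0.56) fell, and 8 of the 18 genes of this axis rose against 7 that fell.

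Lineage genes other than those of Th1 cells were mixed. Foxp3, which defines regulatory T cells, was at 16.9, 12.4 and 15.5 CPM in the YFPneg libraries and 2.40, 2.22 and 2.30 CPM in the YFPpos libraries (log2 fold change -2.69 ± 0.25, adjusted p = 1.3e-07), and Izumo1r, the folate receptor of regulatory cells, at 147, 197 and 168 CPM in YFPneg against 54.8, 64.1 and 60.6 CPM in YFPpos cells (log2 fold change -1.51 ± 0.12, adjusted p = 1.3e-08). Il1rl1, the IL-33 receptor, was higher in producers, at 7.64, 4.74 and 3.28 CPM in YFPneg against 35.0, 24.4 and 30.4 CPM in YFPpos cells (log2 fold change 2.49 ± 0.25, adjusted p = 3.5e-07). Of 19 regulatory T cell genes 8 rose and 5 fell, and those that rose, such as Il10, Il2ra, Entpd1 and Ctla4, are also genes of activated effector cells. Gata3, the Th2 factor, fell from 34.7, 31.6 and 31.0 CPM to 12.9, 14.1 and 11.2 CPM (log2 fold change -1.35 ± 0.13, adjusted p = 2.4e-07), within 5 of 13 Th2 genes higher and 3 lower. Among 11 Th17 genes 5 rose and 2 fell: Il23r was at 2.14, 0.624 and 0 CPM in YFPneg against 5.69, 3.66 and 4.39 CPM in YFPpos cells (log2 fold change 2.24 ± 0.61, adjusted p = 0.0054), and Il17a had no count in the 6 libraries.

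Producers had higher levels of cell-cycle genes, most broadly those of mitosis. Of 44 genes of mitosis and spindle 43 rose, with a median of 0.91, and 37 of 41 DNA replication genes rose, with a median of 0.42. Aurka (Aurora A kinase) was at 46.9, 43.6 and 43.3 CPM in the YFPneg libraries and 117, 115 and 116 CPM in the YFPpos libraries (log2 fold change 1.38 ± 0.07, adjusted p = 1.3e-10). Cdk1 was at 104, 94.1 and 93.2 CPM in YFPneg against 195, 203 and 208 CPM in YFPpos cells (log2 fold change 1.06 ± 0.06, adjusted p = 5.6e-10), and Cdc20, the activator of the anaphase-promoting complex, at 70.8, 72.6 and 53.7 CPM in YFPneg against 165, 168 and 174 CPM in YFPpos cells (log2 fold change 1.36 ± 0.09, adjusted p = 1.1e-09). Birc5 (survivin, 1.08), Kif2c (1.07) and Racgap1 (0.99) rose as well. For replication, Tk1 was at 65.7, 64.5 and 58.1 CPM in YFPneg against 119.6, 124 and 129.8 CPM in YFPpos cells (log2 fold change 0.99 ± 0.07, adjusted p = 1.1e-08), and Rrm1 (0.60), Rrm2 (0.73), Rfc3 (1.00), Pcna (0.55) and Uhrf1 (0.63) followed. All 3 producer libraries were above all 3 non-producer libraries for each mitotic gene named.

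The letters TTTGAA, the cell cycle genes homology region (CHR) through which the DREAM and MuvB complexes control mitotic genes, were present on either strand of the promoters of 27 of 37 mitosis genes (73%). They were present for 1321 of 9411 tested genes with a promoter (14%), for 15.9% of genes called higher, for 14.1% of genes called lower and for 6 of 33 DNA replication genes (18.2%). The lists that fell held them too, in 12 of 38 antiviral genes (31.6%) and 5 of 10 interferon-inducible GTPases (50%). This 6-letter word is short and common, and a match says nothing about binding. The list is of known mitotic genes, so its share follows in part from how it was chosen. Stretches of 60 bases before the start are shown for the 5 mitosis genes with the smallest p that hold a match wholly before it, with the match in capitals. The stretches lie at chr10:69352913-69352972 (minus strand), chr4:118437344-118437403 (minus strand), chr4:117178843-117178902 (minus strand), chr2:164769869-164769928 (plus strand) and chr7:80294416-80294475 (plus strand) of GRCm38.p6, in the order shown.
Cdk1: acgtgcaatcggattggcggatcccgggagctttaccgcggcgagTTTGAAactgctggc
Cdc20: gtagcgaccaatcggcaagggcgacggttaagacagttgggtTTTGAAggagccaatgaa
Kif2c: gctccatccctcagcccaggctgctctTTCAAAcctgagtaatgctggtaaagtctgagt
Ube2c: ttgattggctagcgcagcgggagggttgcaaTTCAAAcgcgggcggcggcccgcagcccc
Prc1: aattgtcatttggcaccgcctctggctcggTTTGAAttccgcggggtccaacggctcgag
Capitals that read TTCAAA are matches on the opposite strand. Ube2c, the ubiquitin-conjugating enzyme of mitotic exit, and Prc1, a spindle midzone protein, were chosen by this rule and rose with log2 fold changes of 1.15 and 1.04.

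Genes of the G1 phase were less uniform, with 14 of 23 higher and 3 lower (median 0.47). Cdkn1a (p21), a cell-cycle inhibitor, was at 102, 94.5 and 75.3 CPM in the YFPneg libraries and 299, 287 and 300.0 CPM in the YFPpos libraries (log2 fold change 1.70 ± 0.12, adjusted p = 6.7e-09). Cdkn1b (p27), the inhibitor of resting cells, was at 183, 193 and 229 CPM in YFPneg against 112, 116 and 104 CPM in YFPpos cells (log2 fold change -0.87 ± 0.10, adjusted p = 8.9e-07). The pair of inhibitors thus moved in opposite directions. Ccne1 (0.78), Ccnd3 (0.69), Cdk6 (0.82) and E2f3 (0.79) rose.

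In the BCL2 family 6 of 16 genes rose and 2 fell. Pmaip1 (Noxa, pro-apoptotic) rose from 57.9, 35.9 and 37.2 CPM to 169, 161 and 149 CPM (log2 fold change 1.86 ± 0.16, adjusted p = 3.8e-08), and the survival gene Bcl2l1 from 33.2, 27.3 and 32.9 CPM to 60.3, 57.8 and 63.9 CPM (log2 fold change 0.96 ± 0.14, adjusted p = 1.6e-05). Mcl1, also a survival gene, fell (log2 fold change -0.71 ± 0.05, adjusted p = 1e-08). Bcl2a1b, another survival gene, was the other member that fell (-0.51), with its call lost in 4 of 13 alternatives. Survival genes thus moved both ways, and no pro-apoptotic member was called lower.

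Genes of growth metabolism were mostly higher in producers. Amino acid uptake, the ATF4 response and serine synthesis rose in 22 of 26 genes, with none lower and a median of 0.65. Asns (asparagine synthetase) was at 23.3, 17.0 and 20.4 CPM in the YFPneg libraries and 80.2, 66.5 and 75 CPM in the YFPpos libraries (log2 fold change 1.86 ± 0.14, adjusted p = 1.5e-08). Slc7a5, a large neutral amino acid transporter, was at 184, 175 and 149.7 CPM in YFPneg against 384, 384 and 379 CPM in YFPpos cells (log2 fold change 1.17 ± 0.08, adjusted p = 4.2e-09), and Psat1, an enzyme of serine synthesis, at 174, 155 and 157 CPM in YFPneg against 312, 292 and 327 CPM in YFPpos cells (log2 fold change 0.94 ± 0.07, adjusted p = 6e-09). Mthfd2 (0.64), Aldh18a1 (0.63) and Slc7a3 (2.04) rose as well.

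Of 33 genes of sterol and fatty acid synthesis 18 rose and 1 fell (median 0.25). Scd1, a stearoyl-CoA desaturase, was at 57.9, 45.7 and 33.3 CPM in YFPneg against 175, 198 and 156 CPM in YFPpos cells (log2 fold change 1.94 ± 0.26, adjusted p = 6.9e-06), and its relative Scd2 also rose (0.97). Mvd (0.76) and Sqle (0.60), enzymes of cholesterol synthesis, were higher, and the cholesterol exporter Abcg1 was the member that fell (log2 fold change -1.26 ± 0.16, adjusted p = 3.7e-06). Glycolysis was less uniform, with 14 of 27 higher and 4 lower. Hk2 (hexokinase 2) was at 149, 146 and 111 CPM in YFPneg against 331, 316 and 315 CPM in YFPpos cells (log2 fold change 1.24 ± 0.09, adjusted p = 9.4e-09), and Pgam1 (0.80), Ldha (0.57), Eno1 (0.59) and the glucose transporter Slc2a1 (0.58) rose. Pdk1 (log2 fold change -0.81 ± 0.07, adjusted p = 4.5e-08), a kinase that inhibits pyruvate dehydrogenase, fell.

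Of 35 nuclear-encoded respiratory chain genes 29 rose and none fell, with a median of 0.33, Cox5a going from 117, 122 and 109.9 CPM to 205, 187 and 218 CPM (log2 fold change 0.80 ± 0.06, adjusted p = 1.2e-08) and Sdhd from 105, 119 and 110.4 CPM to 178, 174 and 179.6 CPM (log2 fold change 0.67 ± 0.06, adjusted p = 9.8e-08). Of 21 endoplasmic reticulum folding genes 15 rose and 1 fell (median 0.34). Sdf2l1 rose most in that list (log2 fold change 1.24 ± 0.09, adjusted p = 6e-09), followed by the stress sensor Ern1 (log2 fold change 1.21 ± 0.13, adjusted p = 4.5e-07), and Dnajc3 was the exception (log2 fold change -0.18 ± 0.06, adjusted p = 0.017). The call of Dnajc3 was lost in 4 of 13 alternatives. Ribosome biogenesis rose in 17 of 33 (median 0.29), with Gar1, a box H/ACA particle protein, at 32.5, 37.8 and 36.0 CPM in YFPneg against 77.8, 60.3 and 81.7 CPM in YFPpos cells (log2 fold change 1.05 ± 0.12, adjusted p = 9.6e-07). Metallothioneins and zinc genes rose in 7 of 9. Mt1 was at 16.7, 16.9 and 3.63 CPM in YFPneg against 77.2, 74.3 and 63.7 CPM in YFPpos cells (log2 fold change 2.51 ± 0.38, adjusted p = 5.5e-05), and Mt2 at 8.71, 9.42 and 1.19 CPM in YFPneg against 41.5, 39.8 and 29.9 CPM in YFPpos cells (log2 fold change 2.50 ± 0.42, adjusted p = 0.00015), both without overlap.

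The transcript of the inhibitor's target was slightly lower in producers. Dot1l (chr10:80755206-80795461, ENSMUSG00000061589) was at 222, 220.0 and 221 CPM in the YFPneg libraries and 169.7, 183 and 178 CPM in the YFPpos libraries (log2 fold change -0.32 ± 0.07, adjusted p = 0.00059). The compound blocks the enzyme, not its transcript, so this level does not check the treatment. Of 15 genes on a list of DOT1L, its partners and related elongation and MLL genes 9 fell and 3 rose (median -0.32). Aff3, a scaffold of elongation complexes, was at 229.7, 209 and 242 CPM in YFPneg against 90.5, 84.9 and 89.1 CPM in YFPpos cells (log2 fold change -1.36 ± 0.07, adjusted p = 1.2e-10). Kmt2a (MLL1) was at 758, 795 and 937 CPM in YFPneg against 358, 354 and 338 CPM in YFPpos cells (log2 fold change -1.24 ± 0.07, adjusted p = 2.8e-10), and Mllt3 (AF9), which recruits DOT1L to chromatin, at 185, 178 and 198 CPM in YFPneg against 108, 110.0 and 104 CPM in YFPpos cells (log2 fold change -0.80 ± 0.06, adjusted p = 5.6e-09). Aff1 (-1.22) and Aff4 (-0.51) fell as well, and the elongation factor Ell2 rose (log2 fold change 1.08 ± 0.12, adjusted p = 8e-07). Cdk9 (0.15) and Men1 (0.22) rose slightly, and both calls were lost without YFPpos replicate 2 or 3. The genes of this list are long, with a median exon length of 7451 bases.

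Among 36 enzymes of histone and DNA methylation 19 fell and 8 rose (median -0.30). Kdm6b, an H3K27 demethylase, was at 132, 125 and 116 CPM in the YFPneg libraries and 39.3, 41.4 and 41.8 CPM in the YFPpos libraries (log2 fold change -1.6 ± 0.11, adjusted p = 3.2e-09). Kmt2c (-1.39), Kmt2d (-1.12), Kdm5b (-1.05), Whsc1l1 (-1.05) and Tet3 (-0.82) fell. Those that rose were Suv39h1 (0.67), Suv39h2 (0.87), Prmt1 (0.51), Prmt5 (0.54), Whsc1 (0.40), Dnmt1 (0.27) and the PRC2 members Eed (0.49) and Ezh2 (0.45).

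Long and short genes differed in direction over the whole transcriptome. Among genes with at most 2448 bases of exon, 36.6% were called higher and 13.5% lower, with a median log2 fold change of 0.21. Among those with at least 7518 bases, 19.4% were called higher and 44.4% lower, with a median of -0.17. Across the 12319 genes with a length, which are not independent replicates, Spearman's rho was -0.195. Minus the median of all genes in each member's length quintile, the median was -1.83 for antiviral genes, 0.95 for mitosis, -0.33 for the DOT1L list and -0.20 for methylation enzymes. The part of length in the results was not tested.

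**Figure D4:**
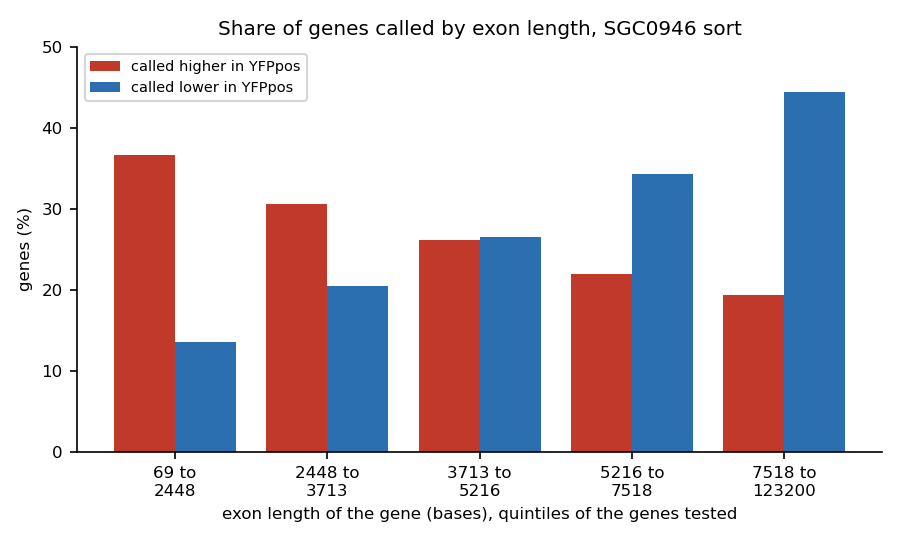
Share of genes (%, from 0) called higher (red) or lower (blue) in YFPpos than in YFPneg cells with SGC0946, in 5 classes of exon length. The share called higher goes from 36.6% in the shortest to 19.4% in the longest class, and that called lower from 13.5% to 44.4%.

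Other genes among the 12 with the largest increases were of no common list. Sulf2, an extracellular sulfatase, was at 5.18, 4.12 and 0.697 CPM in YFPneg against 26.0, 22.9 and 26.0 CPM in YFPpos cells (log2 fold change 2.86 ± 0.34, adjusted p = 2.5e-06). Timp1, an inhibitor of matrix proteases, was at 5.61, 3.68 and 0.767 CPM in YFPneg against 29.5, 19.2 and 31.0 CPM in YFPpos cells (log2 fold change 2.94 ± 0.38, adjusted p = 5.8e-06), and Rai14 at 5.08, 2.06 and 0.139 CPM in YFPneg against 21.6, 17.3 and 20.6 CPM in YFPpos cells (log2 fold change 2.96 ± 0.52, adjusted p = 0.00014). YFPneg replicate 3 was the lowest library for these 3 genes. Lars2, the mitochondrial leucyl-tRNA synthetase, was at 81.7, 164 and 67.6 CPM in YFPneg against 1093, 1008 and 1244 CPM in YFPpos cells (log2 fold change 3.42 ± 0.28, adjusted p = 2.5e-08), again without overlap. The sorts also differed in reads mapped to several places (22% to 22.3% against 24% to 25.7%), whose part in the level of Lars2 was not tested.

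The remaining large increases were mitochondrially encoded and varied among the producer libraries. mt-Co3 was at 1.01, 2.75 and 0.837 CPM in YFPneg against 36.9, 6.87 and 37.9 CPM in YFPpos cells (log2 fold change 4.15 ± 0.54, adjusted p = 6.5e-06), mt-Co2 at 1.6, 2.87 and 2.44 CPM in YFPneg against 27.0, 5.24 and 29.3 CPM in YFPpos cells (log2 fold change 3.17 ± 0.47, adjusted p = 2.2e-05) and mt-Atp6 at 0.481, 0.936 and 0.907 CPM in YFPneg against 15.5, 3.06 and 16.1 CPM in YFPpos cells (log2 fold change 3.92 ± 0.54, adjusted p = 1e-05). YFPpos replicate 2, the producer library with 3.61% of reads unmapped, lay far below the other 2 producer libraries, which had 7.58% and 8.12%. Without it the log2 fold changes were 4.61 for mt-Co3, 3.63 for mt-Co2 and 4.37 for mt-Atp6. Of 13 genes of the mitochondrial genome tested, 6 were called higher, 5 lower and 2 neither. Examples that did not rise, chosen after their values were seen, were mt-Co1 and mt-Cytb: mt-Co1 was at 8302, 6729.8 and 7638 CPM in YFPneg against 6407, 6429.7 and 5781 CPM in YFPpos cells (log2 fold change -0.28 ± 0.07, adjusted p = 0.0034) and mt-Cytb at 3189, 2678 and 3146 CPM in YFPneg against 2873, 2810.1 and 2865 CPM in YFPpos cells (log2 fold change -0.08 ± 0.06, adjusted p = 0.33). Mitochondrial genes have nuclear copies, and reads that fit both were left unassigned. The part of unmapped reads or of such copies was not tested.

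With the inactive compound the sort effect had the same sign for nearly all genes called with both compounds. Of 6752 genes called with SGC0946, 4671 were also called with SGC0649, and 4660 of these had the same sign. Genes called in only 1 of the contrasts are not part of this comparison of signs. The 2 contrasts share no libraries. The difference between the sort effects (SGC0946 minus SGC0649, tested as an interaction in the same model) was called for 142 genes (1.15%), 32 (0.259%) more positive and 110 (0.891%) more negative with SGC0946. Of those 110, 102 were called lower in producers with SGC0946 and 69 with SGC0649. For 107 of them the level in producers was called lower with SGC0946 than with SGC0649. Of the 32, 17 were higher and 13 lower in producers with SGC0946. The 110 and the 32 were chosen by a difference of these same levels. Their counts are therefore partly fixed by that choice and are a description only. The count depended on the libraries, from 61 to 241 with 1 library left out, and was 56 when the naive libraries were left out.

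**Figure D5:**
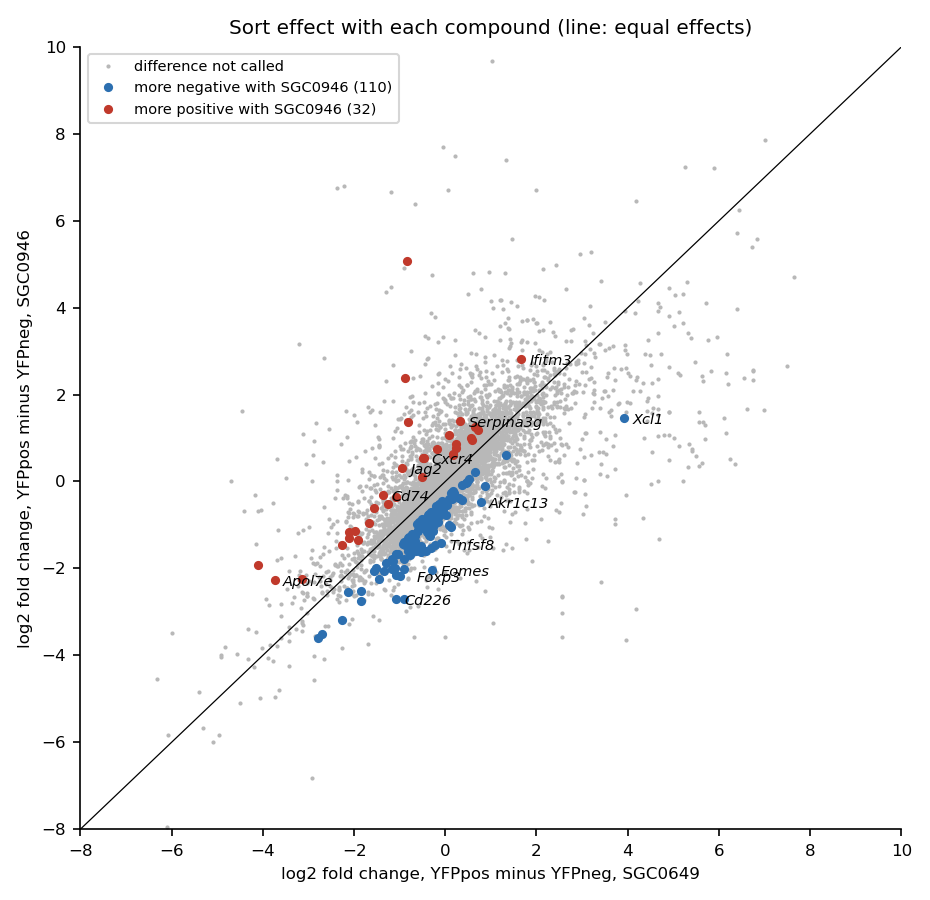
Log2 fold change between YFPpos and YFPneg cells with SGC0649 (horizontal axis) and with SGC0946 (vertical axis) for the 12343 genes tested, with the line of equal effects. The 110 genes below the line in blue and the 32 above it in red are those whose sort effect differed, and Eomes, Foxp3, Cd226 and Xcl1 lie furthest below among those named.

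Eomes was among the genes whose sort effect was larger with the inhibitor. With SGC0649 it was at 128 and 159 CPM in the YFPneg libraries and 75.6, 112 and 165 CPM in the YFPpos libraries, and these overlapped (log2 fold change -0.29 ± 0.25, adjusted p = 0.36). The difference between compounds was -1.75 ± 0.35, adjusted p = 0.020. Foxp3 was at 28.3 and 32.4 CPM in the YFPneg libraries and 11.9, 15.7 and 21.1 CPM in the YFPpos libraries with SGC0649 (log2 fold change -0.90 ± 0.22, adjusted p = 0.0034), so that it was lower in producers with both compounds, and more so with SGC0946 (difference -1.79 ± 0.34, adjusted p = 0.015). Without either 1 of the 2 YFPneg libraries with SGC0649 the difference was not called for Eomes or Foxp3. In all, Eomes kept its call in 12 of 18 alternatives, losing it also without YFPpos replicate 1 or 2, and Foxp3 in 14 of 18.

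Cd226, an adhesion and costimulatory receptor, was at 10.8, 12.2 and 18.5 CPM in YFPneg against 1.82, 2.54 and 1.96 CPM in YFPpos cells with SGC0946 (log2 fold change -2.70 ± 0.22, adjusted p = 2.5e-08) and at 11.9 and 13.2 CPM in the YFPneg libraries and 4.43, 5.88 and 7.53 CPM in the YFPpos libraries with SGC0649 (difference -1.62 ± 0.31, adjusted p = 0.016). Tnfsf8 (CD30 ligand) was at 329.6, 302 and 432 CPM in YFPneg against 130.3, 115 and 150.3 CPM in YFPpos cells with SGC0946 and showed almost no sort effect with SGC0649 (-0.08, difference -1.34 ± 0.23, adjusted p = 0.0079). Akr1c13, an aldo-keto reductase, was at 7.27, 10.5 and 7.81 CPM in YFPneg against 5.65, 6.99 and 5.77 CPM in YFPpos cells with SGC0946 and changed sign between compounds (-0.48 and 0.78, difference -1.25 ± 0.25, adjusted p = 0.020). The sort effect of Akr1c13 with SGC0946 lost its call in 5 of 13 alternatives. Akr1c13 was called in 11 of 18 alternatives for the difference and Cd226 in 13 of 18. Xcl1 (lymphotactin) rose in producers with both compounds but less with SGC0946: it was at 9.62, 6.12 and 10.0 CPM in YFPneg against 26.6, 13 and 31.1 CPM in YFPpos cells with the inhibitor and at 8.53 and 5.76 CPM in the YFPneg libraries and 72.2, 77.5 and 174 CPM in the YFPpos libraries with SGC0649 (difference -2.46 ± 0.54, adjusted p = 0.032). Its difference was called in 10 of 18 alternatives.

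Tcf7, Bach2, Tox, Nr4a1 and Cd69 had a stronger decrease in producers with SGC0946 than with SGC0649. How the differences of these genes hold in the alternatives was not examined. Tcf7 was at 749.8 and 719 CPM in the YFPneg libraries and 151, 158 and 151 CPM in the YFPpos libraries with SGC0649, with YFPneg levels near those seen with SGC0946 and higher levels in producers (difference -0.92 ± 0.10, adjusted p = 0.00075). Nr4a1 was at 426 and 498 CPM in the YFPneg libraries and 192, 205 and 223 CPM in the YFPpos libraries (difference -0.85 ± 0.10, adjusted p = 0.00075). The differences were -0.81 ± 0.10, adjusted p = 0.00082 for Bach2, -1.18 ± 0.19, adjusted p = 0.0053 for Tox and -1.1 ± 0.22, adjusted p = 0.020 for Cd69. Aff3 (-0.61 ± 0.11, adjusted p = 0.0079) and Mllt3 (-0.49 ± 0.09, adjusted p = 0.0079), both on the DOT1L list, and Kdm6b (-0.79 ± 0.16, adjusted p = 0.021) shared this direction, while Dot1l itself did not pass (-0.12 ± 0.10, adjusted p = 0.65).

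Of the 19 interferon-inducible GTPases tested, 4 had a called difference, all more positive with SGC0946, and they are named here after their values were seen: Gbp6 (0.95 ± 0.13, adjusted p = 0.0022), Gbp3 (0.74), Gbp4 (0.71) and Gbp8 (0.57). These 4 genes fell in producers with both compounds and by less with SGC0946, with log2 fold changes for Gbp6 of -1.17 with SGC0946 and -2.12 with SGC0649, although Gbp genes are close copies of each other.

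Also in this direction, Ifitm3, an interferon-induced membrane protein, was at 23.1, 15.8 and 13.5 CPM in YFPneg against 139, 104 and 131 CPM in YFPpos cells with SGC0946 and at 14.7 and 14.8 CPM in the YFPneg libraries and 47.1, 41.2 and 51.4 CPM in the YFPpos libraries with SGC0649 (difference 1.17 ± 0.23, adjusted p = 0.020). It rose in producers while most interferon-induced genes fell. Ifitm1 (log2 fold change 2.72 ± 0.42, adjusted p = 4e-05) and Ifitm2 (log2 fold change 2.61 ± 0.24, adjusted p = 1.4e-07), chosen after their values were seen, rose with it. Cd74, the invariant chain of MHC class II, was at 67.6, 81.1 and 81.8 CPM in YFPneg against 65.5, 60.4 and 61.1 CPM in YFPpos cells with SGC0946 and at 76.2 and 93.6 CPM in the YFPneg libraries and 31.2, 33.2 and 33.7 CPM in the YFPpos libraries with SGC0649 (difference 1.07 ± 0.18, adjusted p = 0.0068), so that the decrease in producers was smaller with the inhibitor. Its own decrease with SGC0946 (log2 fold change -0.30 ± 0.12, adjusted p = 0.039) lost its call in 7 of 13 alternatives. B cells use Cd74 at high levels, and their 10 markers summed to 0.0697 to 2.24 CPM in YFPneg and 2.78 to 3.2 CPM in YFPpos cells, whose part was not tested. Of the 3 tested B cell markers only Ebf1 was called, and it was higher.

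Apol7e was at 57.9, 72.1 and 80.8 CPM in YFPneg against 16.0, 16.4 and 11.5 CPM in YFPpos cells with SGC0946 and at 43.7 and 55.8 CPM in the YFPneg libraries and 4.82, 3.59 and 2.77 CPM in the YFPpos libraries with SGC0649 (difference 1.47 ± 0.25, adjusted p = 0.0079). Jag2, a Notch ligand, was at 11.8, 16.5 and 15.6 CPM in YFPneg against 15.8, 21.7 and 16.9 CPM in YFPpos cells and at 6.40 and 9.40 CPM in the YFPneg libraries and 3.78, 4.11 and 4.33 CPM in the YFPpos libraries (difference 1.27 ± 0.26, adjusted p = 0.023). Cxcr4, the receptor of CXCL12, rose with SGC0946 (0.54) and fell with SGC0649 (-0.48, difference 1.02 ± 0.23, adjusted p = 0.043), and Serpina3g, a serine protease inhibitor of T cells, had a difference of 1.07 ± 0.25, adjusted p = 0.048. Cxcr4 and Serpina3g were called in 5 and 7 of 18 alternatives, Ifitm3 in 12, Jag2 in 13 and Apol7e in 17. Several genes with clear sort effects did not pass this test: the difference was -1.19 ± 0.46, adjusted p = 0.26 for Ifng, 0.18 ± 0.20, adjusted p = 0.73 for Irf7, -0.28 ± 0.50, adjusted p = 0.85 for Il10 and 0.73 ± 0.29, adjusted p = 0.28 for Prf1. A p above the threshold does not show that the sort effects were equal.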

How the data were processed

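Reads were counted per gene with featureCounts on GRCm38, per the submitters' processing notes, and the authors deposited a table of raw counts for 22048 protein-coding genes in 14 libraries, with a summary of read assignment. Neither the aligner nor the release of the annotation is given in the sources used here. edgeR and limma are also named there, but the deposited values are counts before any normalization.

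Libraries were grouped by their labels. Genes were filtered with filterByExpr, which left 12343 (56.0%), and scaled with TMM factors. All 14 libraries entered 1 quasi-likelihood model with a coefficient per group (R 4.3.3, edgeR 4.0.16), so the groups share an estimate of spread (biological coefficient of variation 9.12%, 16.6 total degrees of freedom). Contrasts were tested by quasi-likelihood F tests, with Benjamini-Hochberg adjustment and a threshold of 0.05. Log2 fold changes use a prior count of 0.125, and standard errors come from dividing the fold change by the root of F. Ratios of genes with 1 to 3 counts in a group carry 95% intervals, which cover counting error only. With 3 libraries a group, an exact permutation test of a single gene cannot go below 0.10, so none was used. No library pair agreed within sampling noise. The script was tested on simulated counts.

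The comparison and the 44 gene lists were chosen with earlier results of these data known. The text names 8 set genes, the 12 genes with the largest change each way (mean log2 CPM of at least 3, no overlap), up to 6 members of each list with the smallest p and members against their list's direction, and the 6 largest differences between compounds each way. Bst2, Ifi204, Slfn8, Ube2c, Prc1, Ifitm1, Ifitm2, mt-Co1, mt-Cytb, Gbp3, Gbp4, Gbp6 and Gbp8 are not named by it and were chosen with their values in view, as were genes in the closing observations that are described so. Where a symbol stood for several IDs (Gbp6, Itgam), the ID with more counts was used. A few genes selected this way are not reported here. List symbols Cxcl11, Dec2, Folr4, Gbp11, Mx2, Oas1b and Scart2 were not matched. Gene lengths came from GENCODE release M21 and promoters from RefSeq. Alternatives were RLE size factors, DESeq2 1.42.0, limma-voom (limma 3.58.1), no filter on low counts, fewer libraries in the fit, a replicate block and leaving out each library; leaving out YFPneg replicate 3 and YFPpos replicate 2 together was chosen after seeing the data.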

Additional observations from a re-analysis of the deposited data

Results flagged for a closer look

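For 39 of the genes selected by the naming rule, the sort effect differed between SGC0946 and SGC0649 cultures in a test of the difference itself (an interaction in edgeR's quasi-likelihood model, called at 1.15% of all genes tested). Values in brackets are the sort effect with SGC0946 minus that with SGC0649, on the log2 scale. Among 30 genes with a more negative sort effect under the inhibitor, the largest differences were those of Xcl1 (-2.46), Foxp3 (-1.79), Eomes (-1.75), Cd226 (-1.62), Tnfsf8 (-1.34) and Akr1c13 (-1.25). Next came the receptors, factors and early-response genes Tox (-1.18), Cd69 (-1.1), Tcf7 (-0.92), Nr4a1 (-0.85), Bach2 (-0.81), Samd9l (-0.81), Kdm6b (-0.79), Stat4 (-0.79), Ccr7 (-0.75), Izumo1r (-0.75), Cd274 (-0.72) and Il6st (-0.69). The other negative differences were Klf3 (-0.68), Txk (-0.67), Foxp1 (-0.67), Aff3 (-0.61), Fas (-0.59), Egr1 (-0.59), Kdm5b (-0.50), Mllt3 (-0.49), Btla (-0.46), Cd6 (-0.42), Cd5 (-0.37) and Stat5b (-0.35). Among 9 genes with a more positive sort effect under the inhibitor were Apol7e (1.47), Jag2 (1.27), Ifitm3 (1.17), Cd74 (1.07), Serpina3g (1.07), Cxcr4 (1.02), Socs2 (1.00), S1pr1 (0.82) and Racgap1 (0.43). Another 10 listed genes that the naming rule did not select also had a called difference. The inactive compound's YFPneg group had 2 libraries, so each of these differences leans on them.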

How the results depend on the processing

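The count of genes called higher in producers was 2775 to 3783, and that of genes called and at least 2-fold 1455 to 1931, over all alternatives, within 1.5 times the values reported. RLE size factors and DESeq2 moved the median of all genes from 0.01 to 0.06 and the split to 3716 higher and 3048 lower and to 3783 and 3109. The number of differences between compounds changed most: 301 with DESeq2, 56 with only the 11 cultured libraries, and 61 to 241 when 1 library was left out. It was 119 with RLE factors, 177 with limma-voom, 185 without the filter and 108 without YFPneg replicate 3 and YFPpos replicate 2. With the replicate number as a block, 3517 genes were called higher, 3478 lower, 1654 at least 2-fold and 196 differed between compounds. The numbers were not taken as a pairing: deviations of same-numbered SGC0946 libraries correlated at 0.111, 0.0784 and 0.0405, although each library correlated best with its own number. Of the values of named genes, 3689 sort effects kept direction and side of the threshold, 102 lost the call and 1 gained it. Cd4 changed sign, to 0.0187 with RLE factors and 0.0187 with DESeq2, and was called in neither. For the differences of the 12 genes named, 149 values kept their call and 67 lost it. Of the counts within lists, 1097 stayed within 1.5 times and 47 did not, mostly counts of 0 to 3 genes. YFPneg libraries were shallower than YFPpos libraries, so genes with few counts in non-producers have the least certain levels. The causes of these changes were not tested.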

Other observations

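Some members of the T cell receptor complex and its proximal kinases were lower in producers, and others were not. Of 12 genes of T cell identity 6 were called lower and none higher (median log2 fold change -0.10). Cd5, a negative regulator of the receptor, was at 583, 642 and 598 CPM in YFPneg against 315, 329 and 308 CPM in YFPpos cells (log2 fold change -0.94 ± 0.06, adjusted p = 8.4e-10). Cd247, the zeta chain, was at 257, 289.6 and 302 CPM in YFPneg against 173, 188 and 179 CPM in YFPpos cells (log2 fold change -0.65 ± 0.06, adjusted p = 2.2e-07), and Cd3e at 229, 239.8 and 269 CPM in YFPneg against 182, 187 and 180.0 CPM in YFPpos cells (log2 fold change -0.43 ± 0.07, adjusted p = 3.9e-05). Zap70 (-0.22), Zbtb7b (-0.28) and Lck (-0.16) were lower by small amounts, with the call of Lck lost under RLE size factors and without YFPpos replicate 1. The other members were not called. Among them the receptor chain genes Cd3d (0.17) and Cd3g (0.08) lay slightly higher in producers, without overlap between the sorts. Such a lack of overlap was seen for 59.6% of all genes.

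The genes given next were chosen after their values were seen. MHC class II chain genes H2-Ab1, H2-Aa and H2-Eb1 rose in producers, while the class II accessory genes H2-DMa (-0.47) and H2-Ob (-0.75) and the invariant chain gene Cd74 (-0.30) fell. H2-Ab1 was at 22.2, 21.8 and 16.3 CPM in YFPneg against 49.7, 54.8 and 44.1 CPM in YFPpos cells (log2 fold change 1.30 ± 0.21, adjusted p = 4.9e-05), H2-Aa at 3.58, 2 and 0.139 CPM in YFPneg against 7.16, 8.62 and 8.35 CPM in YFPpos cells (log2 fold change 2.03 ± 0.51, adjusted p = 0.0028), and H2-Eb1 had a log2 fold change of 2.37. The 10 markers of B cells, which use these genes, summed to 0.0697 to 2.24 CPM in YFPneg and 2.78 to 3.2 CPM in YFPpos cells, and their part was not tested. Only Ebf1 was called, and higher, among the 3 tested B cell markers. With SGC0649, H2-Ab1 was at 9.80 and 8.79 CPM in the YFPneg libraries and 15.9, 12.9 and 7.87 CPM in the YFPpos libraries, and the difference between compounds was not called (0.90 ± 0.32, adjusted p = 0.22). The cytokine gene Csf2 (GM-CSF) was at 0.694, 0.312 and 0 CPM in YFPneg against 3.96, 2.11 and 2.52 CPM in YFPpos cells (log2 fold change 2.97 ± 0.63, adjusted p = 0.0011). Cdkn2a, a cell-cycle inhibitor of the INK4-ARF locus, was at 0.534, 0.998 and 0.139 CPM in YFPneg against 2.76, 2.66 and 2.33 CPM in YFPpos cells (log2 fold change 2.18 ± 0.49, adjusted p = 0.0017), and its neighbour Cdkn2b had 3 counts in YFPneg and 69 in YFPpos libraries, a ratio of YFPpos to YFPneg of 14.1 (95% counting interval 4.62 to 69.9). The mitochondrial mt-Nd6, alone on its strand among the protein-coding mitochondrial genes, was at 11.5, 11.6 and 9.76 CPM in YFPneg against 48.4, 58.0 and 38.0 CPM in YFPpos cells (log2 fold change 2.13 ± 0.20, adjusted p = 1.3e-07). Gzmf had 0 counts in YFPneg and 49 in YFPpos libraries and was at least 9.99-fold higher in producers when set against 3 counts for the YFPneg group as a floor, although it is a close copy of other granzymes.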
